A study of Arabidopsis thaliana with 36 samples.

Results

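A group of 10 short tRNA genes of the Arabidopsis plastid genome was followed in chromatin immunoprecipitation with sequencing (ChIP-seq) of 2 proteins of the plastid transcription machinery. The genes were chosen by annotation: tRNA entries of 100 bp or less between positions 40001 and 130000, counted in the first copy of the inverted repeat and outside the ribosomal RNA region at 100651 to 108600. These are 10 of the 30 tRNA genes and of the 113 genes that the plastid holds when each repeat gene is counted 1 time. In wild-type seedlings the ChIP signal of RpoB and of pTAC3, taken over the gene itself, was above input at all 10. The highest, trnP and the trnL of the small single-copy region, stood between 3.46 and 4.87 times input, and the lowest, trnS, between 1.23 and 1.43 times. In the ptac3 and ptac14 mutants most of the genes lay near input, so the fall was largest among those that were highest in the wild type. The highest mutant means were those of the small single-copy trnL and of trnT in ptac14, at 1.52 and 1.43 times input. At trnS and the trnL of the repeat, RpoB was not called lower in either mutant with libraries scaled to their mean.

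Plastids have a bacterial-type RNA polymerase, called PEP, whose core subunits are encoded in the plastid itself. RpoB is its beta subunit. A phage-type polymerase encoded in the nucleus, called NEP, works beside it. PEP is known for the transcription of photosynthesis genes and of most plastid tRNA genes. The partners pTAC3, which has a SAP domain, and pTAC14 are made from nuclear genes and belong to the proteins associated with PEP, and plants without such PEP-associated proteins fail to green. The tRNAs themselves bring amino acids to the plastid ribosome, and the glutamate tRNA is in addition the starting point of chlorophyll synthesis. It is not among these 10.

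The 36 libraries came from 12 groups of 3 replicates in 3 sets. In the ptac3 set, RpoB was precipitated from wild-type plants (Col-0) and from ptac3 mutants. The ptac14 set compares RpoB between its own Col-0 plants and ptac14 mutants. The pTAC3 set precipitated pTAC3 itself, from Col-0 and from ptac3, which is mutated in the gene of that antigen. Each ChIP group had an input group of its own, made without antibody. All plants were untreated seedlings of 5 days, stratified for 48 h, raised on MS medium of 0.5 strength in continuous light of 100 µmol per m2 and s, and crosslinked with 4% formaldehyde for 4 h before chloroplasts were enriched. The labels name the mutant lines but no alleles, and they do not say whether replicates came from separate cultures, so p-values measure the spread between these libraries, which may be technical. A genotype tag reads wild type for every sample, mutants included. The line names and titles were used in its place. Both mutated genes are nuclear and absent from coverage of the plastid, so the mutations could not be checked here. A lower value in whole seedlings does not tell apart fewer plastids with bound polymerase from less polymerase on each genome.

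Depth, as mean coverage per position, was 59.2 to 1538 for ChIP and 318 to 924 for input. Lowest was replicate 2 of the pTAC3 ChIP in ptac3. ChIP depth was 59.2 to 204 in the mutant libraries and 113 to 1538 in the Col-0 libraries, so the mutant libraries were mostly shallower. What this did to the comparisons of mutant with Col-0 was not tested. Coverage was scaled to a mean of 1 in every library, and enrichment is the log2 ratio of ChIP to input over the gene, so that 1 unit is a 2-fold difference and 0 is the level of input. Replicate error is given as the standard deviation (SD) of 3 libraries. A call means an adjusted p under 0.05 in limma with Benjamini-Hochberg adjustment over all 128 gene entries. Where 3 values are given in a row for groups or changes, they belong to the ptac3, the ptac14 and the pTAC3 set, in that order. Since the scale is relative, a rise of many genes is matched by a fall of others. The median of all 113 genes stood at -0.66, -1.03 and -0.66 in Col-0. It rose in the mutants by 0.64, 0.90 and 0.64, and changes of the 10 genes are also given relative to that shift.

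Coordinates are those of the RefSeq annotation of the TAIR10.1 plastid genome, in which all 10 are tRNA entries between 72 and 87 bp long. In the large single-copy region, trnS (ArthCt125, positions 44827 to 44913) decodes serine and lies between ycf3, 235 bp away, and rps4, 309 bp away. The next gene, ArthCt100 (46213 to 46285), is listed by its tag only. It is called trnT here after the name used in choosing the genes. It lies 608 bp before the intron-containing trnL (ArthCt101). On the other side of that trnL, 684 bp away, lies the phenylalanine gene trnF (ArthCt102, 48175 to 48247), followed after 429 bp by ndhJ, a gene of the plastid NDH complex.

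The methionine gene trnM (ArthCt104, 52056 to 52128) lies 184 bp after the intron-containing trnV (ArthCt103) and 136 bp before atpE, a gene of the ATP synthase. The tryptophan gene trnW (ArthCt105, 66229 to 66302) and the proline gene trnP (ArthCt106, 66490 to 66563) lie 187 bp apart, between petG and psaJ, which encode small subunits of the cytochrome b6f complex and of photosystem I. Of the 3 genes in the inverted repeat, trnI (ArthCt113, 86312 to 86385) lies between rpl23 and ycf2, at 168 and 88 bp. The leucine gene trnL (ArthCt126, 94276 to 94356) lies between ycf2 and ndhB, at 917 and 584 bp. The asparagine gene trnN (Arthct120, 109013 to 109084) lies between trnR, at 637 bp, and ycf1, at 320 bp. The other leucine gene (Arthct122, 114270 to 114349) is in the small single-copy region, between rpl32 at 662 bp and ccsA at 111 bp.

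The 100 bp limit left a wide gap: the longest of the 10 is trnS with 87 bp, and the shortest tRNA gene above the limit is the intron-containing trnL with 597 bp. Along the genome, the last short tRNA gene before the 40 kb border is trnfM, which ends at 36777, and the first after it is trnS, which starts at 44827.

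In Col-0, the RpoB and pTAC3 ChIP signal lay above input over all 10 tRNA genes. It was highest at trnP, the trnL of the small single-copy region, trnM and trnF, and lowest at trnS. The test called 10 of 10 above input in each set. Of all 128 entries, 35.9%, 35.2% and 37.5% were called higher. The largest adjusted p among the 10 was 0.0404, 0.0140 and 0.000206 (limma), each time that of trnS. These calls hold for the gene itself. With 300 bp added to each side, trnS had Col-0 means of -0.20, -0.31 and -0.13. The trnL of the repeat had -0.16, -0.16 and 0.02 in such windows, which were not tested against input. The median of the 10 was 0.95, 1.02 and 1.04. The 12 short tRNA genes before 40 kb had medians of 1.35, 1.60 and 1.63, and the 79 protein-coding genes had medians of -0.88, -1.24 and -0.87.

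**Figure D1:**
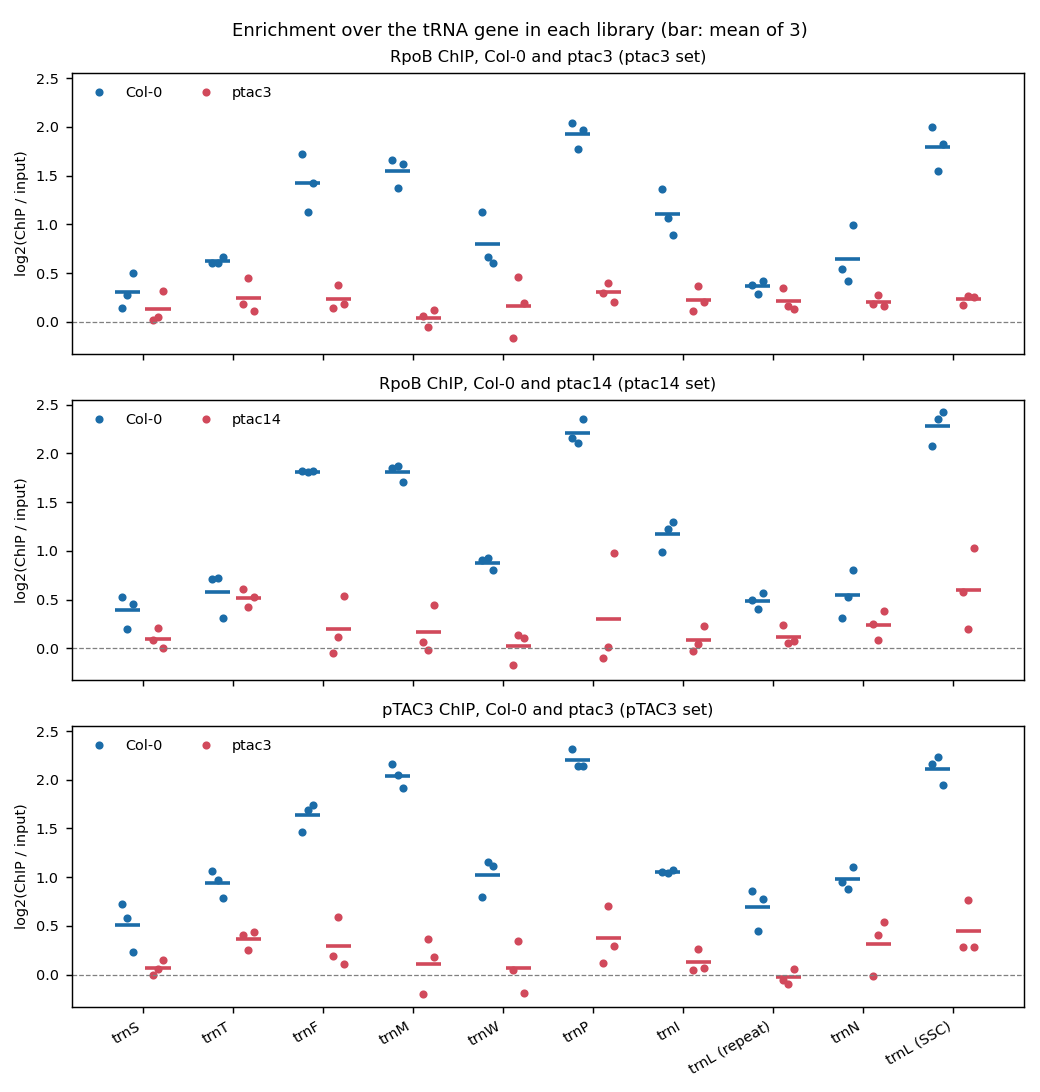
Enrichment, log2(ChIP / input), over each of the 10 tRNA genes (x axis, in genome order; SSC, small single-copy region) in the 3 sets. Points are the 3 libraries of Col-0 (blue) and of the mutant (red), and bars are their means. Col-0 means of trnP lie between 1.93 and 2.20, and mutant means of all 10 genes between -0.03 and 0.60.

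trnP had the highest mean RpoB level of the 10 in the ptac3 set, with replicates at 2.04, 1.77 and 1.97. In the Col-0 libraries of the ptac14 set it stood at 2.16, 2.10 and 2.35. pTAC3 gave 2.32, 2.14 and 2.14. The proline gene was thus above input in 9 of 9 Col-0 libraries, and its mean ranked at place 3, 4 and 3 of 113 genes in the 3 sets. The trnL of the small single-copy region had RpoB levels of 2.0, 1.55 and 1.82 in the ptac3 set and of 2.08, 2.35 and 2.42 in the ptac14 set. Its pTAC3 levels were 2.16, 2.23 and 1.95. The values of trnP and of this trnL overlapped in every set.

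trnM stood at 1.66, 1.38 and 1.62 for RpoB in the ptac3 set, at 1.85, 1.87 and 1.70 in the ptac14 set, and at 2.17, 2.04 and 1.91 for pTAC3. trnF stood at 1.72, 1.13 and 1.43, at 1.82, 1.81 and 1.82, and at 1.47, 1.69 and 1.74. The methionine gene lay above the phenylalanine gene without overlap for pTAC3. For RpoB their libraries overlapped in both sets.

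The middle of the order was held by trnI and trnW. trnI had means of 1.11 ± 0.24, 1.17 ± 0.17 and 1.06 ± 0.02 (SD, n = 3). trnW had means of 0.80 ± 0.28, 0.88 ± 0.06 and 1.02 ± 0.19 (SD, n = 3). The isoleucine gene lay above the tryptophan gene without overlap in the ptac14 set, and the libraries overlapped in the other sets.

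The lower 4 genes were trnN, trnT, trnL of the repeat and trnS. trnN had Col-0 means of 0.65, 0.55 and 0.98, and trnT had means of 0.62, 0.58 and 0.94. Their libraries overlapped in all 3 sets, so their order is not resolved. The repeat trnL had means of 0.36, 0.49 and 0.69. trnS came last in each set, with replicates at 0.15, 0.27 and 0.50, then 0.52, 0.20 and 0.46, and then 0.73, 0.58 and 0.23. It overlapped with the repeat trnL throughout.

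Some calls of these low genes rested on single libraries. For RpoB in the ptac3 set, trnS had an adjusted p (limma) of 0.0741 without Col-0 replicate 2 and of 0.285 without replicate 3, and the repeat trnL one of 0.130 without replicate 3. For the ptac14 set, trnS had 0.0918 without Col-0 replicate 1. Without replicate 2 of that set, trnS had 0.0632, trnT 0.0615 and trnN 0.0616. The calls of the pTAC3 set did not depend on any 1 library.

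The order of the 10 genes was much the same in the 3 groups of Col-0 plants. Pearson's r of the 10 means was 0.987 between the RpoB groups, and 0.975 and 0.967 between pTAC3 and the RpoB of the ptac3 and ptac14 sets. These are descriptions over 10 genes of the same genome, which are not independent replicates. Where the proteins were compared directly, Col-0 pTAC3 minus the mean Col-0 RpoB of both sets, 0 of 10 genes and 0 of 128 entries (0%) were called by limma, and 5 entries had an unadjusted p under 0.05. Among these were trnN at 0.38 (95% interval 0.02 to 0.74), trnM at 0.36 (0.04 to 0.68) and trnT at 0.33 (0.01 to 0.66), all higher for pTAC3, with an adjusted p of 0.894 each. At the top of the order, trnP differed by 0.13 (-0.18 to 0.45) and the trnL of the small single-copy region by 0.08 (-0.26 to 0.42).

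**Figure D2:**
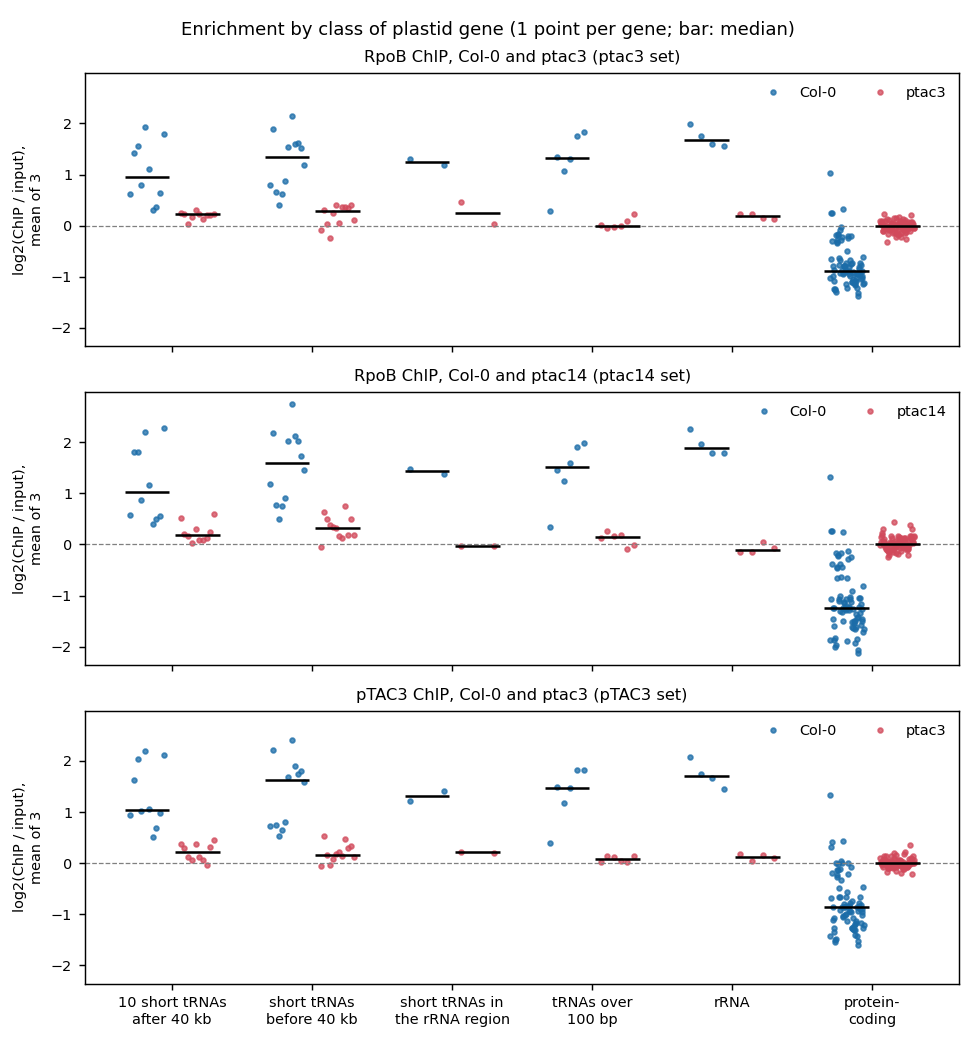
Enrichment, log2(ChIP / input), mean of 3 libraries, for every plastid gene with 1 repeat copy counted (1 point per gene), by class and set; Col-0 in blue, mutant in red, black bars are medians. The 10 short tRNA genes after 40 kb have Col-0 medians of 0.95, 1.02 and 1.04, and protein-coding genes lie mostly below 0 in Col-0.

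By a rule on the median of the 10 genes over the 18 ChIP libraries, the genes with the most similar enrichment were the intron-containing trnL (ArthCt101), with a mean absolute difference of 0.15, psbA, the gene of the D1 protein of photosystem II, with 0.18, and trnD, the aspartate tRNA gene, with 0.21. The intron-containing trnL stood at 1.07, 1.24 and 1.18 in the 3 Col-0 groups, between trnT and trnF on the genome. For psbA the Col-0 levels were 1.02, 1.32 and 1.33. trnD had 0.86, 0.90 and 0.80.

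Around the genes, the Col-0 signal took 3 forms: peaks on the tRNA gene itself, slopes of a stronger peak nearby, and stretches that span several genes. The trnL of the small single-copy region had a peak of its own, with a summit 30 to 50 bp to the low-coordinate side of the gene's centre in all 9 Col-0 libraries and a width above input of 320 to 400 bp. trnI had its summit 70 bp to the high-coordinate side in 9 of 9 Col-0 libraries, between the gene and ycf2, and was 260 to 340 bp wide. trnS had a stretch of 140 to 280 bp. Summits and widths were read in steps of 20 bp.

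trnP and trnW shared 1 enriched stretch of 760 to 880 bp. Its summit was at trnP, 10 to 50 bp to the high-coordinate side of the centre of that gene. Within 300 bp of trnW, the highest point lay 270 to 310 bp from its centre, which is at trnP. The neighbours of the pair were not enriched in that way: petG had means of -0.50, -0.65 and -0.57 in Col-0, and psaJ of -0.21, -0.13 and 0.00.

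trnF lay in a stretch of 2100 to 2560 bp that also took in the intron-containing trnL. In 7 of the 9 Col-0 libraries trnT belonged to the same stretch. In Col-0 replicate 1 of the ptac3 set and replicate 3 of the ptac14 set, the stretch at trnT ended after 320 and 260 bp. trnM lay at the high-coordinate end of a stretch of 1420 to 2200 bp that held trnV, which stood at 1.31, 1.59 and 1.47. The trnN stretch was 320 to 540 bp wide in 8 Col-0 libraries, and in replicate 3 of the pTAC3 set it ran on towards the ribosomal RNA region, to the end of the 3000 bp searched.

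**Figure D3:**
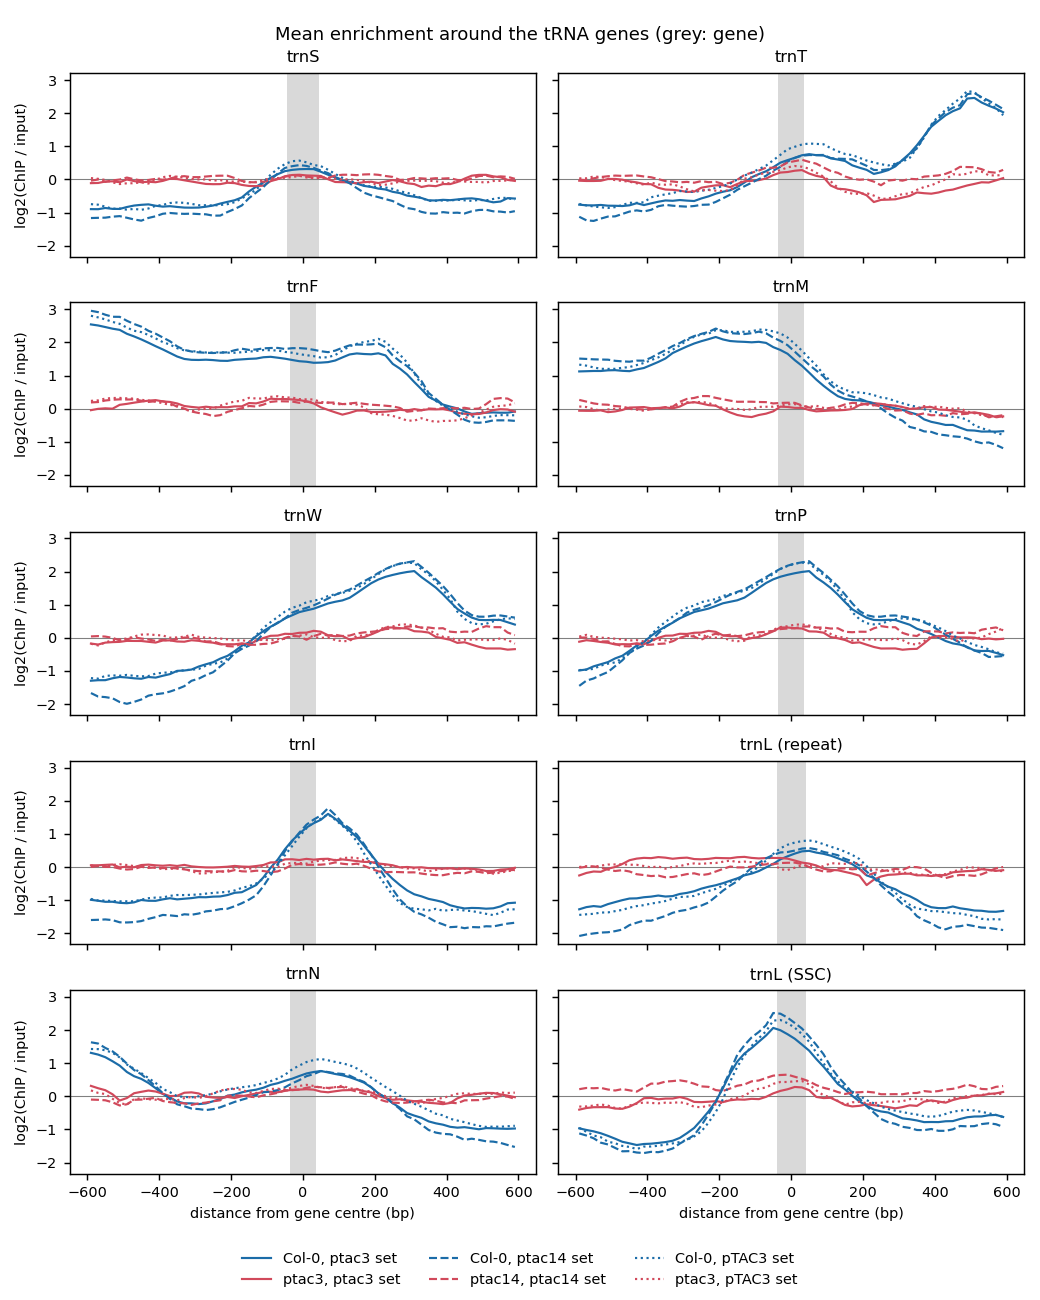
Mean enrichment, log2(ChIP / input), of 3 libraries in steps of 20 bp against the distance from the centre of each tRNA gene (bp; low to high coordinate), for Col-0 (blue) and mutants (red); the grey band is the gene and SSC the small single-copy region. trnI and the trnL (SSC) have peaks of their own, trnW lies on the flank of trnP, and most mutant lines stay near 0.

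The 300 bp on either side of the gene were compared within each library, low-coordinate flank minus high-coordinate flank. The test called 6, 7 and 7 of 10 genes unequal, against 60.6%, 62.2% and 63% of all 127 entries with both flanks, a share near that of the 10. The gene table gives no strand, so the sides are coordinates and not upstream or downstream.

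The steepest sides belonged to trnW and trnM. At trnW the high-coordinate flank, which faces trnP, was higher by 1.83, 2.17 and 2.01. At trnM the low-coordinate flank, which faces trnV, was higher by 1.62, 1.80 and 1.58. trnI was higher towards ycf2 by 1.08, 1.38 and 0.94, although ycf2 as a whole gene stood at -1.22, -1.85 and -1.43. trnT was higher towards the intron-containing trnL by 0.75, 0.94 and 0.78. The trnL of the small single-copy region was higher towards rpl32 by 0.50, 0.57 and 0.38, with an adjusted p (limma) of 0.00513, 0.000322 and 0.00704 in the 3 sets, and of 0.0530 in the ptac3 set without Col-0 replicate 3.

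The flanks of trnF and trnP were close to equal, with differences between -0.09 and 0.09 and 95% intervals that lay within -0.38 and 0.37. The calls of the other 3 genes changed with single libraries. The repeat trnL was called in the ptac3 and ptac14 sets, with an adjusted p (limma) of 0.213 without Col-0 replicate 2 and 0.264 without replicate 3 in the former and of 0.0642 without replicate 2 in the latter. In the pTAC3 set it was called without replicate 3 (0.00326) and with flanks of 150 bp (0.000823). trnN was called in the ptac14 and pTAC3 sets, with 0.0656 and 0.0886 without replicates 1 and 3 of the former and 0.152 and 0.153 without replicates 1 and 2 of the latter. Without Col-0 replicate 1, and only then, it was called in the ptac3 set, at 0.00929. trnS was called in the pTAC3 set and had 0.0824, 0.159 and 0.104 without replicates 1, 2 and 3 and 0.306 with flanks of 150 bp, and in the ptac14 set it was called, at 0.0412, only without replicate 3.

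The signal over the 10 genes was lower in the mutants. Mutant means lay between 0.04 and 0.30, 0.02 and 0.60, and -0.03 and 0.44. The size of the fall thus mostly follows the Col-0 level, which is itself part of the change. In ptac3, RpoB enrichment fell at 8 of 10 genes. In ptac14 it fell at 6 of 10. pTAC3 enrichment fell at 10 of 10 genes in the ptac3 mutant. Of all 128 entries, 30.5%, 27.3% and 36.7% were called lower in these comparisons, and 51.6%, 53.9% and 52.3% higher. None of the 10 was called higher. The median change of the 10 was -0.76, -0.97 and -0.94, against 0.64, 0.90 and 0.64 over all 113 genes. Relative to that shift the median was -1.39, -1.87 and -1.58, and all 10 lay below the median gene in every set.

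At trnP, the ptac3 libraries stood at 0.30, 0.40 and 0.21 against 2.04, 1.77 and 1.97 in Col-0. The ptac14 libraries stood at -0.11, 0.01 and 0.98 against 2.16, 2.10 and 2.35. For pTAC3 the mutant gave 0.12, 0.71 and 0.30. Mutant and Col-0 libraries did not overlap in any set, and ptac14 replicate 3 was higher than the other two. The changes were -1.63 ± 0.18, -1.91 ± 0.25 and -1.82 ± 0.17 (limma standard error, 3 against 3 libraries).

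The trnL of the small single-copy region stood at 0.17, 0.26 and 0.26 in ptac3, at 0.58, 0.19 and 1.03 in ptac14, and at 0.29, 0.76 and 0.28 for pTAC3 in ptac3. Again ptac14 replicate 3 and, for pTAC3, replicate 2 were the highest of their groups, and none reached its Col-0 range. The gene changed by -1.56 ± 0.18, -1.68 ± 0.23 and -1.67 ± 0.17 (limma standard error).

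trnM fell by 1.51, 1.64 and 1.93 on the log2 scale, to mutant means of 0.04, 0.16 and 0.11. trnF fell by 1.19, 1.61 and 1.34, to 0.23, 0.20 and 0.30. In ptac14 the libraries of trnF were -0.05, 0.11 and 0.53, and those of trnM 0.06, -0.02 and 0.44, so that replicate 3 was again the highest. trnI fell by 0.88, 1.09 and 0.93. trnW fell by 0.64, 0.85 and 0.96, with an adjusted p (limma) of 0.000519, 0.000597 and 2.65e-08. These 6 genes were called in all 3 sets, and their mutant and Col-0 libraries did not overlap.

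**Figure D4:**
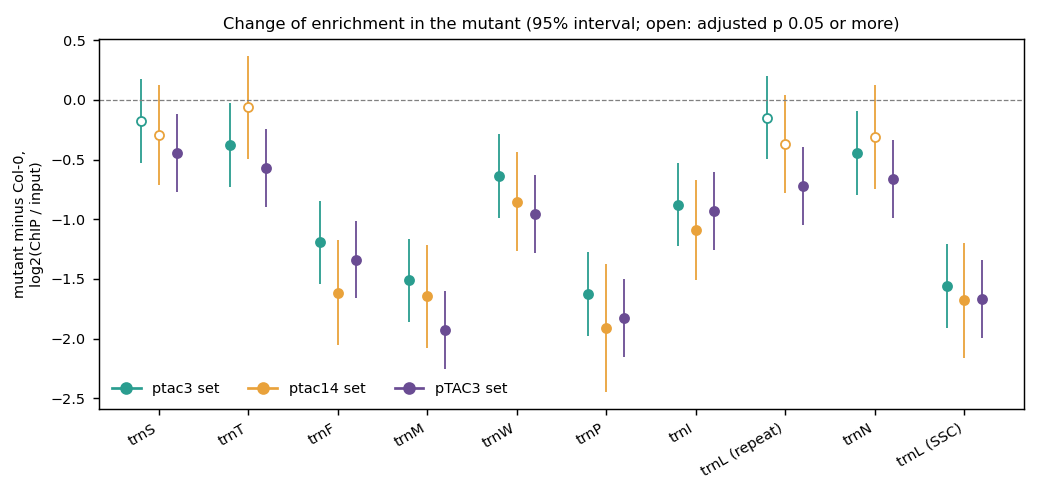
Change of enrichment in the mutant, mutant minus Col-0 in log2(ChIP / input), for each tRNA gene (SSC, small single-copy region) and set, with 95% intervals from limma. Filled points were called at an adjusted p under 0.05; trnS and the repeat trnL have open points in both RpoB sets, trnT and trnN in the ptac14 set alone, and trnP has changes between -1.91 and -1.63.

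The 4 genes that were low in Col-0 had small changes. trnN changed by -0.44 in the ptac3 set (limma adjusted p 0.0163), by -0.31 in the ptac14 set (0.167) and by -0.66 in the pTAC3 set (9.66e-05). trnT changed by -0.38 (adjusted p 0.0426), -0.06 (0.766) and -0.57 (0.000761). The repeat trnL changed by -0.15 (adjusted p 0.430), -0.37 (0.0833) and -0.72 (2.19e-05). trnS changed by -0.18 (adjusted p 0.351), -0.30 (0.168) and -0.44 (0.00911). Thus pTAC3 enrichment fell at all 4, and RpoB enrichment was called lower only at trnN and trnT, and only in ptac3.

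These calls near the threshold moved with single libraries. In ptac3 plants, trnT had an adjusted p (limma) of 0.112 without Col-0 replicate 3, 0.115 without mutant replicate 1 and 0.181 without mutant replicate 3. trnN had 0.213 without Col-0 replicate 3, 0.0678 without mutant replicate 3 and 0.0522 when its second repeat copy was used. For pTAC3, trnS had 0.0533 without Col-0 replicate 1. For ptac14, a fit with the replicate number as a block called the repeat trnL as well (limma adjusted p 0.0408), which made 7 of 10. Over all entries, 40 were called lower in ptac14 with the block and 35 without it. Deviations of same-numbered libraries correlated there at 0.56, 0.21 and 0.76, but only replicate 3 correlated best with its own number.

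The split between rising and falling genes depends on the scale. With libraries scaled to their median position, 10 of 10 genes were called lower in every set, and so they were when scaled to rpoB, rpoC1 and rpoC2. Over all entries, the calls higher and lower went from 66 and 39 to 14 and 64 with the median and to 0 and 89 with the rpo genes in the ptac3 set. They went from 69 and 35 to 27 and 68 and to 0 and 105 in the ptac14 set, and from 67 and 47 to 22 and 65 and to 0 and 107 in the pTAC3 set.

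Groups were fully separated, with each mutant value under each Col-0 value, at 8, 7 and 10 of the 10 genes, and at 33.6%, 31.2% and 36.7% of all 128 entries. The exceptions were trnS and the repeat trnL in the ptac3 set and trnS, trnT and trnN in the ptac14 set. With 3 libraries against 3, an exact two-sided permutation test of a single gene cannot go below a p of 0.1.

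At trnT the ptac14 level was close to that of Col-0 on the scale of the library mean. Its libraries stood at 0.61, 0.42 and 0.52 in ptac14 and at 0.71, 0.73 and 0.31 in Col-0, and these ranges overlapped. Its excess over input in ptac14 was 87.1% of that in Col-0 on that scale. The scaled input coverage of trnT was 1.00, 0.90 and 0.79 in ptac14 and 0.91, 0.96 and 1.04 in Col-0. With libraries scaled to the median position or to the rpo genes, trnT changed by -1.44 (limma adjusted p 0.000372) and by -2.14 (0.000649). For the 6 genes called in all sets, the share left on the scale of the library mean ran from 1.48% (trnM in ptac3) to 15.9% (trnW in ptac3). The flank of trnT towards the intron-containing trnL stood at 0.59 ± 0.27 in Col-0 and at 0.17 ± 0.09 in ptac14 (SD, n = 3).

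The changes in the 2 mutants were compared directly, the change in ptac14 minus the change in ptac3. By limma, 0 of 10 genes and 0 of 128 entries (0%) were called, and 18 entries, none of them among the 10, had an unadjusted p under 0.05. For trnT the difference was 0.31 with a 95% interval of -0.17 to 0.80. For trnF it was -0.42 with an interval of -0.97 to 0.13, and for trnP -0.28 with an interval of -0.94 to 0.38. Differences of this size between the mutants could not be resolved with 3 replicates.

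Taken over the gene and 300 bp to each side, enrichment fell at 6, 6 and 7 of 10 genes, against 32%, 31.2% and 35.9% of all entries called lower and 50.8%, 52.3% and 49.2% called higher. trnF, trnM, trnP, trnW and the trnL of the small single-copy region were among them in all sets. trnF in this window stood at 1.77, 1.26 and 1.32 in Col-0 and at 0.00, 0.10 and 0.12 in ptac3, with no overlap. The window of trnM stood at 1.48, 1.30 and 1.33 in Col-0 and at 0.15, -0.11 and 0.00 in ptac3. The narrow peak of trnI, by contrast, was diluted: its window stood at 0.33 ± 0.19, 0.31 ± 0.04 and 0.24 ± 0.02 in Col-0 (SD, n = 3) and changed by -0.22, -0.36 and -0.19.

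Of these window changes, trnI was called in the ptac14 set alone (limma adjusted p 0.0291), and leaving out any 1 library but Col-0 replicate 3 ended that call, with 0.0703 to 0.0987. Its window in the ptac3 set was called, at 0.0489, without Col-0 replicate 3. The trnT window was called in the ptac3 set (0.0199) and the pTAC3 set (0.00132). In the former it had an adjusted p of 0.0705 without Col-0 replicate 2 and of 0.0659, 0.138 and 0.0502 without mutant replicates 1, 2 and 3. The trnN window was called in the pTAC3 set (0.00866).

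The window of trnS went up in ptac14 by 0.38 (limma adjusted p 0.0329), from -0.20, -0.34 and -0.40 to 0.13, 0.17 and -0.09, but it changed by -0.97 and -1.67 with libraries scaled to the median position and to the rpo genes. The call was lost without Col-0 replicate 2 (0.0998) and without ptac14 replicates 1 (0.118) or 2 (0.116). The window of the repeat trnL changed by 0.27, 0.10 and 0.03, with no call. It was called higher in the ptac3 set without Col-0 replicate 1 (0.0475) or 3 (0.0397), and lower under both other scalings.

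Of the 12 nearest neighbours that are not tRNA genes, 12, 12 and 10 had a Col-0 mean below input. On the scale of the library mean, on which the median gene rose, 8, 9 and 9 of these were called higher in the mutant, and 4, 3 and 1 had no call. ndhJ and atpE were among those without a call in ptac3, at 0.03 (limma adjusted p 0.914) and 0.23 (0.225). rps4, a ribosomal protein gene between trnS and trnT, stood at -0.67, -1.01 and -0.66 in Col-0 and changed by 0.67, 1.07 and 0.67. ycf2, next to trnI and the repeat trnL, changed by 1.22, 1.77 and 1.39. The tRNA neighbours fell together with the 10: trnV next to trnM changed by -1.32, -1.41 and -1.42, and trnR next to trnN by -0.85, -1.50 and -0.98. Short tRNA genes before 40 kb were called lower in 11, 9 and 12 of 12 cases.

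In the mutants most of the 10 genes lay close to input, and mostly a little above it. The highest means were those of the small single-copy trnL and of trnT in ptac14, at 0.60 and 0.52. In Col-0 of that set, trnS stood at 0.39 and the trnL of the repeat at 0.49. Mean enrichment was above 0 at 10, 10 and 9 of the 10 genes, and at 58.4%, 61.1% and 61.1% of the 113 genes. The median of the 10 was 0.22, 0.18 and 0.21, against 0.03, 0.05 and 0.02 over all 113 genes. The last of these is pTAC3 ChIP in plants mutated for pTAC3, so it gives the level that this ChIP left in that mutant. Whether any pTAC3 protein remained there could not be checked. No RpoB library here came from plants mutated in the gene of RpoB.

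As single genes, few passed. In ptac3, trnP was called above input for RpoB, at 0.30 (limma adjusted p 0.0460), among 1.56% of the entries called higher. In ptac14, 0 of 10 were called against 2.34% of the entries. By unadjusted p under 0.05 (limma), 3 of the 10 were above input there, as were 21 of the 128 entries. For pTAC3 in ptac3, trnT was called at 0.37 (0.0493), 1 of the 0.781% called. Unadjusted, 7 of 10 genes were above input for RpoB in ptac3, as were 25 of the 128 entries. In the pTAC3 set it was 5 of 10 genes and 16 of the 128 entries.

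These calls changed with every library left out of their group. trnP in ptac3 had an adjusted p (limma) of 0.0564, 0.331 and 0.191 without mutant replicates 1, 2 and 3. trnT in the pTAC3 set had 0.116, 0.176 and 0.542. In ptac14, leaving out replicate 3 brought 2 genes past the threshold, trnT at 0.0384 and the trnL of the small single-copy region at 0.0468. Calls rose over the whole genome with it, from 3 higher and 0 lower to 17 higher and 12 lower of the 128 entries.

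Single mutant libraries stood apart at several genes at a time. The median of the 10 genes was 0.07, 0.10 and 0.41 in replicates 1, 2 and 3 of ptac14, while the median of all 113 genes was 0.05, 0.07 and 0.01. For the pTAC3 set it was 0.05, 0.35 and 0.17 in the mutant replicates, against 0.05, -0.02 and 0.05 over all genes. The high library of the pTAC3 set was also the shallowest, with a mean coverage of 59.2. The part of depth in these values was not tested.

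In the median over libraries, the input behind these values was even. Median input coverage of the 10 genes over 18 libraries lay between 0.92 and 1.11 times the genome mean. Single input libraries reached down to 0.79, at trnT, and up to 1.26, at trnS. Between mutant and Col-0 input, 0, 1 and 0 of the 10 genes were called, against 0%, 9.38% and 0.781% of all entries. By unadjusted p under 0.05 it was 2 of 10 in each set, and 23, 28 and 29 of all entries. The called gene was trnF in ptac14, with 0.13 more input (limma adjusted p 0.0469), a call that was lost without Col-0 replicate 2 (0.111) or 3 (0.129) or without ptac14 replicate 1 (0.131), 2 (0.138) or 3 (0.0773), and with the replicate block (0.0659).

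The 3 genes of the inverted repeat have a second copy, and reads of the copies cannot be told apart where their sequence is the same. The second copy of trnI stood at 1.11, 1.32 and 1.06 in Col-0, against 1.11, 1.17 and 1.06 for the first. The second copy of trnN stood at 0.62, 0.58 and 1.06, and that of the repeat trnL at 0.50, 0.49 and 0.59. Single libraries differed between the copies by up to 0.31, at the repeat trnL in ptac3.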

How the data were processed

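Per the labels' protocols, the libraries are ChIP and input DNA of chloroplasts enriched from seedlings. Per the submitters' processing notes, Trim Galore 0.4.1, Bowtie2, bedtools 2.25.0 and the TAIR10 build were used. The authors deposited whole-number coverage, a signal per position, for 154477 positions and 36 libraries. That it is coverage was read from the values. Duplicate removal and the treatment of repeat reads are not given in the sources used here. Gene coordinates came from RefSeq for TAIR10.1. They were checked with the mirrored repeat copies, whose coverage steps matched best at offset 0 in 36 of 36 libraries.

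Each library was divided by its mean. Values are log2(mean coverage of the gene + 0.05), and enrichment is ChIP minus the input of the same group and replicate number. limma 3.58.1 in R 4.3.3 (two-sided, 128 entries, 127 for flanks) was fitted per set, with a mean per group, since coverage is not a table of counts. Spread is partly shared across genes. For mutant against Col-0 in the ptac3 and pTAC3 sets it was almost wholly shared, so standard errors there are nearly equal between genes. The same held for Col-0 ChIP against input in the ptac3 set and for the flanks in the ptac14 set. The fits were tested on simulated data. The design foresaw flanks by strand, but the gene table gives none, so low- and high-coordinate flanks were compared. Summits and widths used Python 3.11.15 and numpy 2.4.6.

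Replicate numbers do not state a pairing. Deviations of same-numbered Col-0 and mutant libraries correlated at 0.56, 0.21 and 0.76 in the ptac14 set, which by the rule used (each above 0.1) counts as paired, and at -0.50 to 0.46 in the other sets. Alternatives covered scaling, pseudocount, a replicate block, single libraries, input, spread, repeat copy and flank length. The 10 genes and the classes were chosen with earlier results of these data known. The other genes named are the nearest neighbours and the 3 most similar genes. No sequence was available to these analyses, so none is shown. Intervals cover the spread between libraries. Reads carry no molecular identifiers.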

Additional observations from a re-analysis of the deposited data

How the results depend on the processing

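Values come in the order ptac3, ptac14 and pTAC3 set. The count of genes above input in Col-0 ran from 8 to 10, 7 to 10 and 10 to 10 when 1 library was left out. Over all 128 entries, calls above input ran from 42 to 46 in the ptac3 set and from 38 to 48 in the ptac14 set. The count lower in the mutant ran from 6 to 8, 6 to 6 and 9 to 10, and that of the window from 5 to 7, 5 to 6 and 7 to 7. Entries called lower over the gene ran from 37 to 42 in the ptac3 set and from 34 to 38 in the ptac14 set. Unequal flanks ran from 4 to 7, 6 to 7 and 5 to 7. Over all entries with both flanks, 77 were called unequal in the ptac3 set. Without Col-0 replicates 1, 2 and 3 it was 74, 44 and 38. The ptac14 set went from 79 to 75, 62 and 80, and the pTAC3 set from 80 to 54, 51 and 68. With libraries scaled to the median position or to rpoB, rpoC1 and rpoC2, 10 genes were lower in ptac14, as were 68 and 105 of all 128 entries. The windows of all 10 were lower in ptac3, as were 76 and 98 of all entries, and in ptac14, as were 77 and 118. Those scalings also turned the window of trnS to -0.76 and -1.15, -0.97 and -1.67, and -0.83 and -1.50, and that of the repeat trnL to -0.64 and -1.02, -1.25 and -1.95, and -0.90 and -1.58. The median gene is moved by the scaling itself.

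The count above input in the mutants was the least stable. In ptac3 it was 0 with a replicate block, 0 with all 36 libraries in 1 fit (an alternative chosen after seeing the data), and 0 to 0 with 1 library left out. Over all entries, calls above input there were 2 in the main fit, 0 in both of those fits and 0 to 5 with 1 library left out. In ptac14 the count of the tRNA genes was 1 with rpo scaling, 2 with all libraries in 1 fit and 0 to 2 with 1 library left out. Over all entries it was 3 in the main fit, 13 with rpo scaling and 7 with all libraries in 1 fit. With 1 library left out it ran from 0 to 17. In the pTAC3 set the count of the tRNA genes was 0 with rpo scaling, a pseudocount of 0.01, a replicate block or all libraries in 1 fit. It was 0 to 0 with 1 library left out. Over all entries it was 1 in the main fit and with all libraries in 1 fit. It was 0 with rpo scaling, that pseudocount or the block, and 0 to 2 with 1 library left out. The count of differing inputs in ptac14 was 0 with median scaling or a replicate block and 0 to 1 with 1 library left out. Over all entries it was 12 in the main fit, 11 with median scaling, 0 with the block and 0 to 14 with 1 library left out. The cause was not tested.

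Under the replicate block, 6, 7 and 10 genes were called lower, against 8, 6 and 10 without it. Over all entries, 36, 40 and 47 were called lower under the block, against 39, 35 and 47 without it. In the ptac3 set trnT (adjusted p 0.0646) and trnN (0.0622) were not called under the block, and trnS (0.0557) was not called above input in Col-0. Only in the ptac14 set did the numbers count as paired, and there replicate 3 alone correlated best with its own number. Of the values of single genes under alternatives, 1911 kept direction and call, 61 lost the call, 36 gained it and 12 reversed. Mean coverage was lowest, at 59.2, in a mutant library, and what depth does to calls near input was not tested.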
